A study of Mus musculus with 1203 samples.

Results

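The cells described here are Krt20-positive mature colonocytes of the mouse colon, 56 from wild type plates and 69 from plates labelled as a conditional knockout. They are 14.6% of the 856 single cells that held at least 1000 genes above 0, out of 1203 sorted wells. A cell was taken when it held Krt20 at 20 TPM or more, Trpm5 below 50 TPM and Muc2 below 500 TPM. TPM divides the reads of a gene by transcript length and sums to 1000000 in a cell, so levels can be compared between genes. Krt20, Trpm5 and Muc2 chose the cells, so their levels below are description, and so are those of every gene that moves with them. No p-value is given for these cells against the others.

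The wells came from female mice of 11 weeks, either wild type or carrying Villin-Cre with floxed alleles of Ipmk (VillinCre;IPMKf/f). Ipmk encodes inositol polyphosphate multikinase, and the Villin promoter drives Cre recombinase in gut epithelium. Cells were sorted with antibodies to EPCAM, an epithelial surface protein, and SIGLEC-F, a tuft cell surface protein, and each well is labelled tuft or epithelial. RNA was read by Smart-seq2, which covers whole transcripts and has no molecular identifiers. The well titles name 16 plates in 7 plate sets, of which 3 are wild type and 4 carry the knockout label. No label names an animal and no plate set holds both genotypes, so genotype and plate set cannot be told apart, and an SD over plate sets may be technical.

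Colonocytes are born from stem cells at the crypt base, move upward and end at the surface between the crypts, where they are shed. Mature colonocytes take up salt and water, turn over bicarbonate with carbonic anhydrases, hold a glycocalyx of membrane mucins and release proteins that keep bacteria away. Krt20 is a keratin of the upper, mature part of the crypt. Tuft cells are rare chemosensory epithelial cells marked by the cation channel Trpm5, and goblet cells secrete the mucin Muc2.

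Of the 766 kept cells from the tuft gate, 92 were Krt20-positive colonocytes, which is 12.01% (exact binomial interval at 95%, 9.79 to 14.5%). Of the 90 kept cells from the epithelial gate, 33 were, which is 36.7% (26.8 to 47.5%). These intervals cover counting error only, and the share follows from the gates and the rule. Plate sets 1 to 7 held 13, 16, 12, 17, 24, 31 and 12 of the cells. Of all kept cells, 62.5% held Trpm5 at 50 TPM or more, 3.50% (30 cells) held Muc2 at 500 TPM or more and 19.4% were low in Trpm5, Muc2 and Krt20, which makes 731 other cells. Those of the last kind, called Krt20-low cells below, differ from the colonocytes by rule in the Krt20 part alone. Their content differed in other ways. Trpm5, below its limit, had a value in 46.99% of them, and the tuft cell gene Dclk1 in 44.58%. Their summed tuft cell genes had a median of 29.68 TPM and reached 4767.5 TPM. Their summed immune genes had a median of 0 TPM and reached 44390 TPM. They are therefore not simply colonocytes low in Krt20, and comparisons with them carry these differences.

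Krt20 ran from 22.92 TPM to 2682.88 TPM in the colonocytes, with a median of 116.31 TPM. The nearest cells on each side of its limit held 19.01 and 22.92 TPM, and 13 cells lay between 10 and 20 TPM. For Trpm5 the nearest cells held 49.87 and 53.54 TPM, and for Muc2 they held 197.01 and 1873.48 TPM, so the Muc2 limit fell in a gap. Krt20 at 20 TPM or more was also present in 10 Trpm5-positive and 5 Muc2-high cells, which are outside the set. Trpm5 was at 0 in all but 15 of the colonocytes, as the plot of single cells shows.

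**Figure D1:**
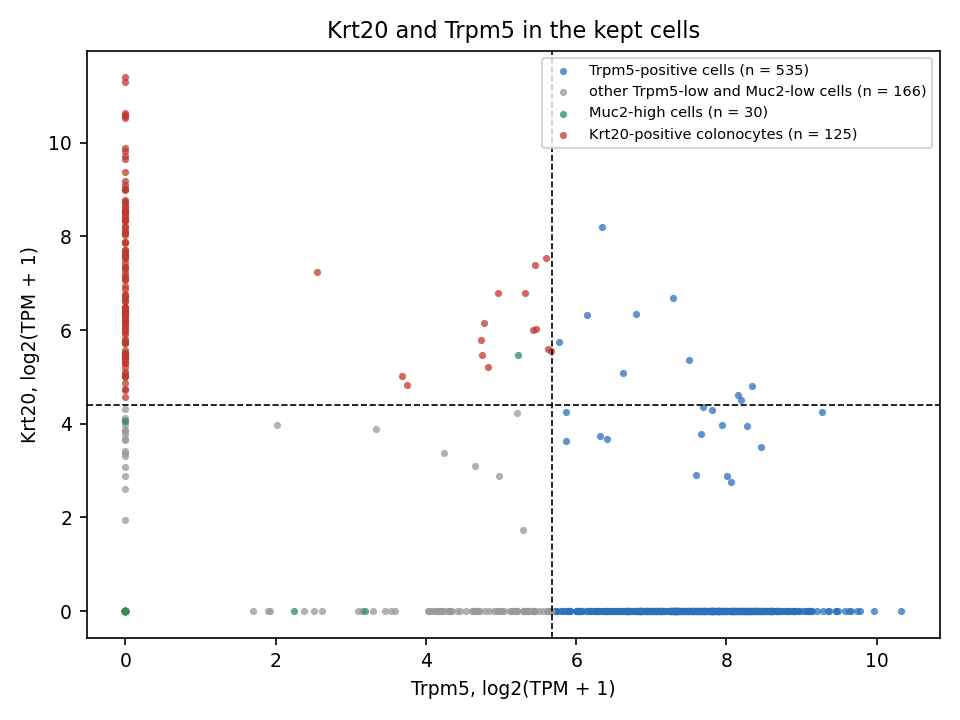
Krt20 (vertical) against Trpm5 (horizontal), both as log2(TPM + 1), in the 856 kept cells. Each point is a cell, coloured by class, and dashed lines mark the 20 TPM and 50 TPM limits of the rule. The colonocytes lie above the Krt20 line and mostly at 0 for Trpm5.

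Depth differed between the classes. The colonocytes had a median of 2444 genes above 0 (1032 to 6130), against 2671 in all other kept cells and 3006 in the Krt20-low cells. The entry for 18S ribosomal RNA took a median of 71.4% of all TPM in colonocytes and 80.6% in the others, and mitochondrial genes took 6.95% and 2.30%. Because these entries fill most of the scale, 10 TPM is a demanding level here, and a change in their share moves every other gene. With those entries and the 20 most abundant other genes left out and TPM rescaled, the median of all genes moved by -0.24 (log2) against all other kept cells, -0.27 against Trpm5-positive cells and -0.01 against Krt20-low cells. The part of depth and composition in the gene differences below was not tested.

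The cells were set beside marker genes of each type the sort could hold. The tuft list holds Trpm5 and the goblet list Muc2, which the rule used, so low sums of these lists follow in part from it. The values below describe the cells and are no separate check of their name. Every colonocyte held a value for at least 3 of the other 5 colonocyte markers (Guca2a, Car4, Saa1, Lypd8 and Muc3), with 52 cells holding 4 and 49 cells holding 5. Among the 731 other cells, 37.9% held none of these 5 and 1.09% (8 cells) held all of them. Krt20-low cells held them more often than that, with 27.7% holding 3, 12.05% holding 4 and 3.61% holding 5. The summed level of a list of 21 mature colonocyte genes was 15621 TPM at the median. The summed level of 20 tuft cell genes ran from 0 to 517.1 TPM with a median of 0, was above 100 TPM in 12 cells, and Gng13 was listed at 0 in all of them. The sum of 13 goblet cell genes had a median of 22.1 TPM and reached 1628 TPM, with Spink4, Atoh1 and Fer1l6 at 0. It was above 100 TPM in 41 of the colonocytes and in 40 of the Krt20-low cells. The goblet list also holds Klk1. On the first plates of the sets Klk1 had a value in 19 of 45 tuft gate and 16 of 33 epithelial gate colonocytes. Muc2 had a value in 11.2% and Agr2 in 4.8% of all the colonocytes. The sum of 16 stem and progenitor genes had a median of 4.79 TPM and reached 161.5 TPM, with Ascl2, Olfm4 and Ube2c at 0. Sums of 11 enteroendocrine, 16 immune and 11 stromal genes had medians of 0 TPM and reached 253.99, 346.8 and 31.5 TPM.

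**Figure D2:**
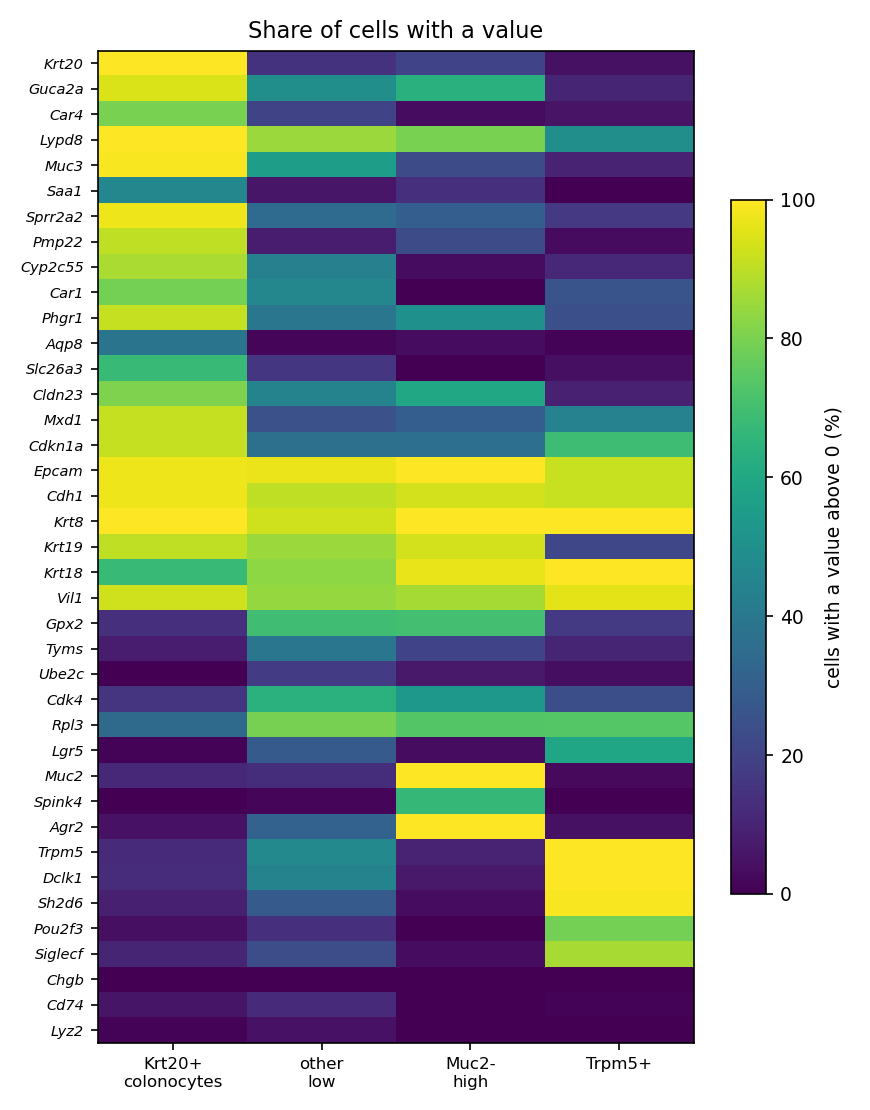
Percent of cells with a value above 0 TPM (colour, 0 to 100%) for 39 genes (vertical) in the 4 classes of kept cells (horizontal). Colonocyte genes are at the top, general epithelial genes in the middle and markers of other types at the bottom. Krt20 was in 100% of the colonocytes by the rule, Lypd8 in 100% and Saa1 in 46.4%.

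For each plate set the mean TPM over the colonocytes was set against the mean over the other cells, as a difference of log2(mean TPM + 1), which understates the change of low genes. A gene was called when it reached 10 TPM in either class, differed at least 2-fold on average and differed in the same direction in each plate set. Against all other kept cells 19.6% of 2770 genes were higher and 14.5% were lower. Against Trpm5-positive cells 23.3% of 2763 genes were higher and 14.8% were lower. Against Krt20-low cells 14.1% of 2864 genes were higher and 12.7% were lower. All 3 comparisons share the same colonocytes. Of the called genes against all other kept cells, 57.5% were higher, and after rescaling 48.9% were, over the 2735 genes tested both ways, against 57.2% of the calls in those genes as deposited. Against Trpm5-positive cells the share of higher calls over the same genes was 61.02% as deposited and 52.2% rescaled.

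Guca2a, on chromosome 4 at positions 119637704 to 119639471 (GRCm38), encodes guanylin, a hormone of the gut lumen that acts on the receptor Gucy2c and sets chloride and water movement. It averaged 5356, 3026, 1827, 6275, 2105, 5566 and 6711 TPM in the colonocytes of plate sets 1 to 7, against 45.5 to 177.9 TPM in the other cells. The lowest colonocyte mean was above the highest mean of the others by more than 10-fold. The log2 difference was 5.42 ± 0.63 (SD, n = 7 plate sets), and against Krt20-low cells it was 4.39 ± 0.85. Guca2b, which encodes uroguanylin, was at 15.4 ± 18.7 TPM and was not called. Their receptor Gucy2c was at 8.11 ± 3.26 TPM in the colonocytes and 15.6 ± 4.07 TPM in the others, and was lower against Trpm5-positive cells alone among the comparisons (log2 -1.12).

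Car4 encodes a membrane carbonic anhydrase of the brush border and lies on chromosome 11 at 84957786 to 84966044. Its colonocyte means were 119.5, 612, 128.5, 442.7, 474.98, 224.4 and 321.9 TPM in plate sets 1 to 7, against 2.93 to 32.2 TPM in the other cells. The means of the labelled conditional knockout plate sets (2, 4, 5 and 7) were all above those of the wild type ones. Car1, a cytosolic carbonic anhydrase, averaged 5702 ± 1368 TPM, and its log2 difference was 4.35 ± 1.14. Of 5 carbonic anhydrases tested, 3 (60%, beside 19.6% of all genes) were higher and none lower against all other kept cells, with a median of 1.78. The third was Car9 at 13.8 ± 11.1 TPM, while Car2 at 103.04 ± 55.9 TPM and Car12 at 11.4 ± 8.24 TPM were not called. Against Krt20-low cells 2 of 5 (40%, beside 14.1% of all genes) were higher, Car1 and Car4, and the list median was 0.63.

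Lypd8, on chromosome 11 at 58379043 to 58390728, encodes a surface protein that binds flagellated bacteria and keeps them off the epithelium. Its means were 2007, 3103, 1622, 2607, 3542, 2197 and 4019 TPM, against 60.05 to 171.6 TPM in the other cells. It was present in all the cells. Its log2 difference of 4.61 ± 0.43 had the smallest SD over plate sets of the 6 markers. Muc3, a membrane mucin of the glycocalyx on chromosome 5 at 137134922 to 137149322, averaged 462.8, 362.1, 275.2, 468.3, 376.5, 474.1 and 429.9 TPM against 9.48 to 33.8 TPM. Its means spanned less than a 2-fold range over the plate sets, with a log2 difference of 4.48 ± 0.60. Both genes were also well represented in Krt20-low cells, where Lypd8 averaged 218.4 ± 60.1 TPM and Muc3 64.2 ± 24.6 TPM.

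Saa1, on chromosome 7 at 46740497 to 46742980, encodes serum amyloid A, an acute phase protein that is made in the colon epithelium as well as the liver. Its colonocyte means were 49.9, 706, 38.1, 249.9, 625, 56.8 and 268.5 TPM in plate sets 1 to 7, against 0 to 26.6 TPM in the other cells. It was the least even of the markers, with a value in 58 cells (46.4%) and a median of 234.9 TPM in those cells. The log2 difference was 4.83 ± 1.89, and the 3 lowest means were those of the wild type plate sets. In Krt20-low cells of plate sets 2 and 5 it averaged 81.8 and 130.7 TPM, more than in the colonocytes of wild type plate sets.

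**Figure D3:**
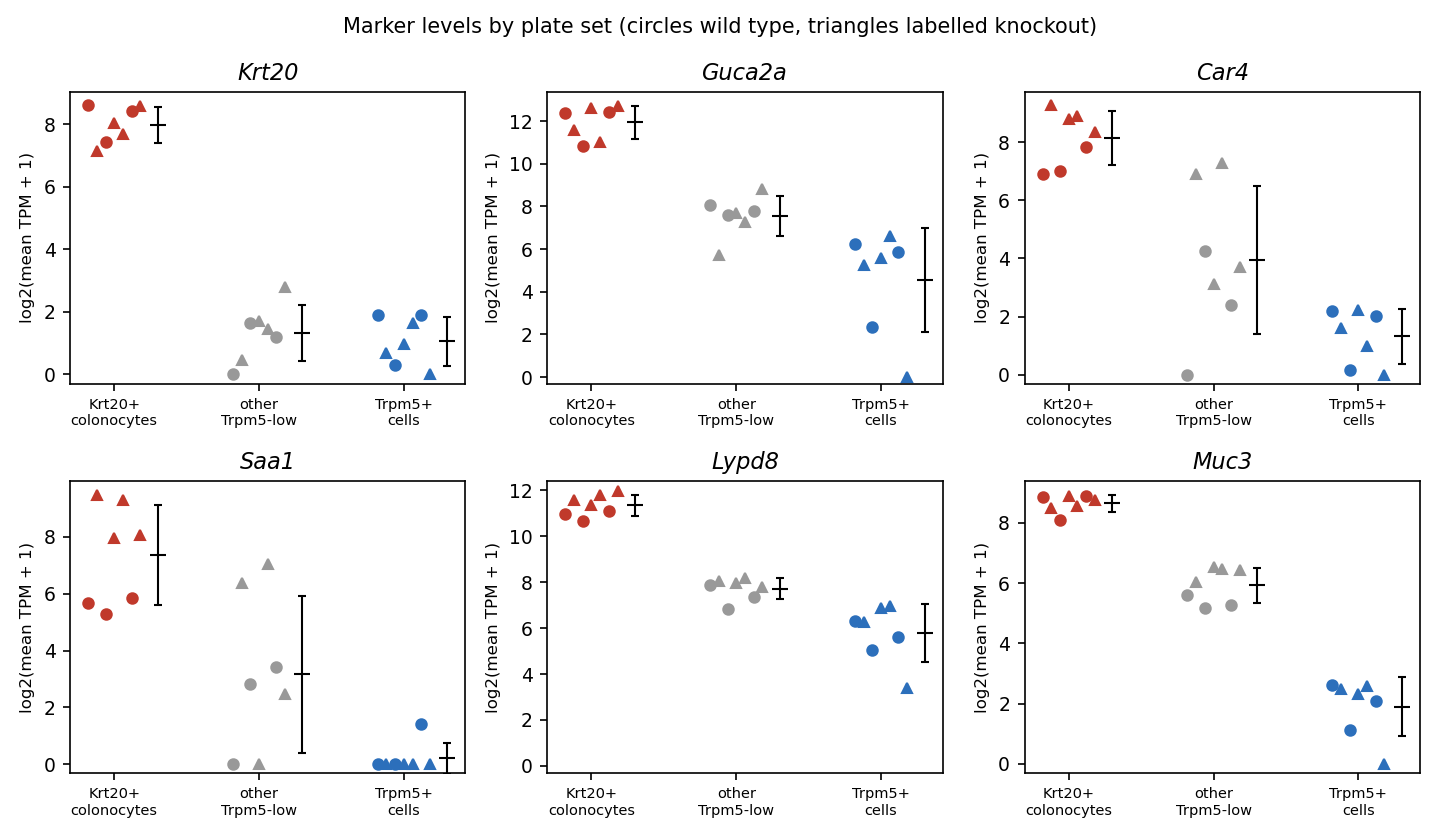
Level of the 6 colonocyte markers, as log2(mean TPM + 1), in Krt20-positive colonocytes, Krt20-low cells (named other Trpm5-low) and Trpm5-positive cells. Each point is a plate set (circles wild type, triangles labelled knockout), and bars give the mean and SD over 7 plate sets. For 4 of the markers the colonocyte points lie above all others without overlap, and for Saa1 and Car4 they overlap those of the Krt20-low cells.

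Among the named genes the largest upward difference from the other cells was that of Sprr2a2, which is not one of the markers. Sprr2a2 encodes a small proline-rich protein known from the cornified envelope of skin and from the gut surface. It averaged 18052, 25072, 10317, 22618, 19866, 16443 and 16121 TPM in the colonocytes of plate sets 1 to 7, against 72.5 to 726 TPM in the other cells. The log2 difference was 6.56 ± 0.88, above that of Krt20 itself at 6.52 ± 0.50, and 97.6% of the cells held a value. Its copies Sprr2a3 and Sprr2a1 averaged 552.6 ± 308.3 and 77.1 ± 32.1 TPM. The split between the 3 copies is uncertain, because their sequences are close and the counting program divides shared reads between them. Of the stretches of 50 bases in the Sprr2a2 protein-coding transcripts (GENCODE M21), 96.5% are also in those of Sprr2a1 and 58.8% in those of Sprr2a3.

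The same likeness holds upstream. Bases 120 to 46 before the start that RefSeq gives each copy on GRCm38.p6 are printed because they make visible how little separates the copies. The first is at chr3:92215715-92215789, the second at chr3:92250527-92250601 and the third at chr3:92285184-92285258, all on the plus strand. GENCODE M21 places the starts elsewhere, at 92215799 for Sprr2a1, at 92215920 and 92250747 for Sprr2a2 and at 92285417 and 92288566 for Sprr2a3, so the windows are upstream of RefSeq's starts only and that of Sprr2a2 lies inside its GENCODE gene.
Sprr2a1: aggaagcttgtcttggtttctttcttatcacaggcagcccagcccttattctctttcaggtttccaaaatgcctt
Sprr2a2: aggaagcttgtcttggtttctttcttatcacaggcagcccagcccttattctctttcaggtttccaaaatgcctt
Sprr2a3: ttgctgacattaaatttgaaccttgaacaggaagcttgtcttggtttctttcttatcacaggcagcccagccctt
Over the full window of 300 bases, from 250 before to 50 after the start, Sprr2a1 and Sprr2a2 were identical at 300 of 300 bases. Sprr2a3 matched both at 100.0% of aligned bases, with its annotated start placed differently in the shared sequence. Serum amyloid A has a like pair. Saa1 (chr7:46743026-46743100, minus strand) and Saa2 (chr7:46751713-46751787, plus strand) face away from a common centre, and the same stretch of each is printed for the same reason.
Saa1: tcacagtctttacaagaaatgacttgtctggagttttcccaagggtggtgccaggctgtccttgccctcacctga
Saa2: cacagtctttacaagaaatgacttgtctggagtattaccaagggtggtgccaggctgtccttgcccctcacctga
Their windows of 300 bases were identical at 95.7% of positions, while 13.2% of the stretches of 50 bases in Saa1 transcripts are also in Saa2. Saa2 averaged 30.5 ± 34.02 TPM in the colonocytes and was not called. All 25 cells with Saa2 also held Saa1.

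Krt20 on chromosome 11 (99428403 to 99438150, minus strand) is shown with the promoters of Cyp2c55 and Tgm3, because these genes share a TATA box type of motif at a like distance from the start. The windows are chr11:99438154-99438273 on the minus strand, chr19:39006899-39007018 on the plus strand and chr2:130012220-130012339 on the plus strand, with TATAAA in capitals.
Krt20: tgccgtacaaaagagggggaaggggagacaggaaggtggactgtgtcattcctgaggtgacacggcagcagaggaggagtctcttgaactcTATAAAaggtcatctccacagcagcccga
Cyp2c55: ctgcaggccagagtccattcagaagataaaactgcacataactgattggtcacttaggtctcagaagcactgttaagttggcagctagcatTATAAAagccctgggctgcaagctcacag
Tgm3: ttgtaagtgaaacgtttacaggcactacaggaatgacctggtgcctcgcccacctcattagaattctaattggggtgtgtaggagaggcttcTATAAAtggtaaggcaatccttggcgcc
The motif starts 29, 29 and 28 bases before the RefSeq start. TATAAA between 40 and 16 bases before the start on the same strand was found in 5 of the 33 windows of the 30 most raised genes (26 of them had a window), those of Cyp2c55, Krt20, Slc26a3, Tgm3 and Tmigd1, and in 1.99% of 32851 RefSeq windows. Anywhere in the window of 300 bases and on either strand it was in 9 of 33 windows and in 13.6% of all. A match is a description of these letters, not a site.

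Among the other genes with large differences, Pmp22, a small tetraspan membrane protein, averaged 275.4, 124.2, 78.7, 149.2, 131.7, 260.1 and 318.2 TPM against 0.26 to 2.81 TPM. It was in 90.4% of the colonocytes, and its difference was 6.21 ± 1.06. Emp1, of the same protein family, was at 55.9 ± 20.8 TPM (4.81 ± 0.88). Clca4a, of the family of chloride channel accessory proteins, was at 44.2 ± 14.7 TPM (4.88 ± 0.97). Phgr1, a small protein rich in proline, histidine and glycine, was at 981 ± 405.4 TPM (4.42 ± 0.87). Prdx6, a peroxiredoxin, was at 843 ± 391.9 TPM (4.04 ± 0.50). Sectm1b, Rbp2, Tmigd1, Slc13a2, Pdlim2, Lhfpl2, Dpep1 and Fhl1 were in the same group, with colonocyte means between 23.9 and 83.9 TPM and log2 differences between 4.04 and 4.70.

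Genes of ion and water transport were higher on the whole, with 10 of 15 tested called higher (66.7%, beside 19.6% of all genes) and none lower. Their median log2 difference was 1.97, beside 0.05 for all genes tested. Aqp8, a water channel, averaged 19.7, 148.8, 6.59, 86.6, 110.2, 79.8 and 146.02 TPM and was in 38.4% of the cells. Its plate set means differed more than 20-fold, and its log2 difference of 5.25 ± 1.56 rested on the 48 cells with a value. Slc26a3, which exchanges chloride for bicarbonate, was at 68.3 ± 34.03 TPM (4.23 ± 0.47). Its relative Slc26a2, a sulfate transporter, was at 50.4 ± 18.003 TPM (1.92 ± 0.45). Slc9a2, a sodium-proton exchanger, was at 16.4 ± 3.79 TPM (3.24 ± 0.44), and Slc6a14, an amino acid transporter, at 31.4 ± 8.61 TPM (3.57 ± 0.40). Sgk1, a kinase that raises the activity of sodium channels, was at 110.3 ± 48.5 TPM (3.17 ± 0.76). Nr3c2, the receptor for aldosterone, was at 72.5 ± 28.7 TPM against 22.5 ± 41.1 TPM (2.62 ± 1.26). The sodium channel subunit Scnn1a at 14.3 ± 15.2 TPM and the sodium pump subunit Atp1b1 were not called.

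Of the antimicrobial and acute phase list, 8 of 15 tested genes (53.3%, beside 19.6% of all genes) were higher and none lower, with a median of 2.69. The higher genes included Sprr2a copies, whose reads are shared and which are therefore not separate results, and the markers Saa1 and Lypd8. Besides Saa1, Lypd8 and the Sprr2a genes these were Ceacam1, an adhesion protein of the apical surface, at 303.9 ± 57.01 TPM (2.69 ± 0.32), the cytokine Il18 at 15.9 ± 11.98 TPM (2.48 ± 1.09) and Gsdmd, a pore-forming gasdermin, at 37.4 ± 8.81 TPM (1.89 ± 0.22). Reg3b at 37.4 ± 25.8 TPM and Reg3g at 26.4 ± 32.9 TPM, secreted lectins that kill bacteria, were not called. Pigr, which carries antibodies into the lumen, was at 55.8 ± 30.9 TPM and was lower than in Krt20-low cells (-1.47 ± 0.95).

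The mucin and glycocalyx list, which also holds genes of other kinds such as Tspan1 and Hpgd, gave 4 higher and 1 lower of 9 tested. That is 44.4% and 11.1%, beside 19.6% and 14.5% of all genes, with a median of 1.21. Against Krt20-low cells 6 of 8 (75%, beside 14.1% of all genes) were higher. Muc13, a membrane mucin, was at 103.3 ± 21.8 TPM (1.85 ± 0.38), Tspan1, a tetraspanin, at 294.7 ± 94.2 TPM (2.48 ± 0.40) and Hpgd, which breaks down prostaglandins, at 44.9 ± 20.05 TPM (2.29 ± 0.69). The gene lower was Muc2, which the rule used. The protocadherins Cdhr2 and Cdhr5, which link microvilli at their tips, were at 58.3 ± 9.79 and 201.6 ± 22.1 TPM and were not called against all other kept cells. Against Krt20-low cells they were higher by 2.17 ± 0.26 and 2.77 ± 0.43.

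Other genes of the brush border differed by comparison. Espn, an actin bundler of microvilli, was at 79.4 ± 9.88 TPM in colonocytes, 15.8 ± 7.83 TPM in Krt20-low cells and 191.4 TPM in Trpm5-positive cells, so it was higher against the first (2.39 ± 0.75) and lower against the second (-1.26). Vil1, villin, was at 54.1 ± 6.98 TPM and was higher only against Krt20-low cells among the 3 comparisons (1.09 ± 0.48). Ezr, which ties the membrane to actin, was at 86.04 ± 29.8 TPM and was higher in each comparison, against all other kept cells (2.15 ± 0.53), Trpm5-positive cells (2.26) and Krt20-low cells (2.02 ± 0.52).

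The keratins did not share a direction. Krt19 averaged 815 ± 343.8 TPM against 163.2 ± 55.05 TPM (2.22 ± 0.61). Krt8 averaged 1174 ± 491.8 TPM against 977 ± 204.3 TPM and was not called (0.17 ± 0.74). Krt18 averaged 86.6, 41.3, 90.9, 110.1, 110.3, 249.5 and 133.99 TPM in plate sets 1 to 7, against 1144 to 2406 TPM in the other cells, a log2 difference of -4.02 ± 1.02. All 7 colonocyte means lay below all means of the others. In Krt20-low cells Krt18 was at 127.2 ± 41.7 TPM, close to the colonocytes (-0.22 ± 0.76), and in Trpm5-positive cells it was at 2349.9 TPM. Krt23 was at 1.16 ± 1.297 TPM against 61.1 ± 15.8 TPM (-5.03 ± 1.06). Over the list of 27 keratin and cytoskeleton genes tested, 10 were higher and 3 lower (37.04% and 11.1%, beside 19.6% and 14.5% of all genes). In this list Lgals3, a galectin, was among the highest in level at 1537 ± 677 TPM (3.11 ± 0.53).

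Of 17 cell junction genes tested, 7 were higher and 1 lower (41.2% and 5.88%, beside 19.6% and 14.5% of all genes), with a median of 1.09. Cldn23 averaged 45.9 ± 5.21 TPM against 3.54 ± 0.92 TPM (3.39 ± 0.45), and Ceacam20, a brush border adhesion protein, 32.04 ± 6.76 TPM against 1.29 ± 0.92 TPM (3.93 ± 0.61). Cldn3 (401.9 ± 156.3 TPM, 1.47 ± 0.45) and Cldn7 (432.4 ± 126.997 TPM, 1.09 ± 0.44) were the most abundant claudins. Cldn15, which forms cation pores, was lower (2.19 ± 1.99 against 10.5 ± 3.16 TPM). Cldn2, another pore former, was lower against Krt20-low cells (0.52 ± 0.76 against 14.0 ± 5.98 TPM, -3.30 ± 0.77).

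Enzymes of detoxification gave 16 higher and 2 lower of 24 tested (66.7% and 8.33%, beside 19.6% and 14.5% of all genes), with a median of 1.74. Cyp2c55, a cytochrome P450, averaged 801, 419.6, 330.5, 443.2, 271.9, 362.9 and 259.7 TPM against 5.601 to 28.2 TPM (4.62 ± 1.00). Selenbp1, which oxidises methanethiol, was at 488.4 ± 172.6 TPM (3.37 ± 0.81) and Hsd17b2, which inactivates sex steroids, at 74.2 ± 27.2 TPM (3.16 ± 0.47). The drug efflux pumps Abcb1a (66.7 ± 26.7 TPM, 3.31 ± 0.44) and Abcg2 (38.6 ± 31.2 TPM, 3.08 ± 1.29) and the sulfotransferase Sult1b1 (37.1 ± 12.7 TPM, 3.22 ± 0.37) were higher too. Adh1, an alcohol dehydrogenase, and Gstm1, a glutathione transferase, were lower by -2.25 ± 1.18 and -1.43 ± 0.90. The carboxylesterases Ces2c (220.97 ± 106.2 TPM, 4.96 ± 0.54) and Ces2a (97.7 ± 61.8 TPM, 4.82 ± 0.79) were among the 30 genes with the largest differences. Against Krt20-low cells 14 of 27 detoxification genes were higher and 4 lower (51.9% and 14.8%, beside 14.1% and 12.7% of all genes). After rescaling 6 of the 27 were lower.

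In lipid and ketone metabolism 11 of 18 tested genes were higher and 1 lower (61.1% and 5.56%, beside 19.6% and 14.5% of all genes). Fabp2, a fatty acid binding protein, was at 129.2 ± 72.6 TPM (3.90 ± 1.24). Fabp1, the other fatty acid binding protein of the list, was listed at 0 in all the colonocytes and averaged 40.6 ± 19.8 TPM in the other cells. Slc51b, a subunit of the basolateral bile acid transporter, was at 92.3 ± 61.9 TPM (4.42 ± 1.56), and 42 cells held a value. Of 9 genes of nutrient and peptide handling 7 (77.8%, beside 19.6% of all genes) were higher and none lower, with a median of 2.14. They included Mep1a, a brush border protease (38.1 ± 11.0 TPM, 3.28 ± 0.34), Slc40a1, the iron exporter (16.9 ± 10.1 TPM, 3.17 ± 0.62), and Fth1, an iron store (1580.4 ± 271.4 TPM, 2.14 ± 0.25). Against Krt20-low cells 6 of 17 genes of lipid and ketone metabolism (35.3%, beside 14.1% of all genes) were higher and none lower.

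**Figure D4:**
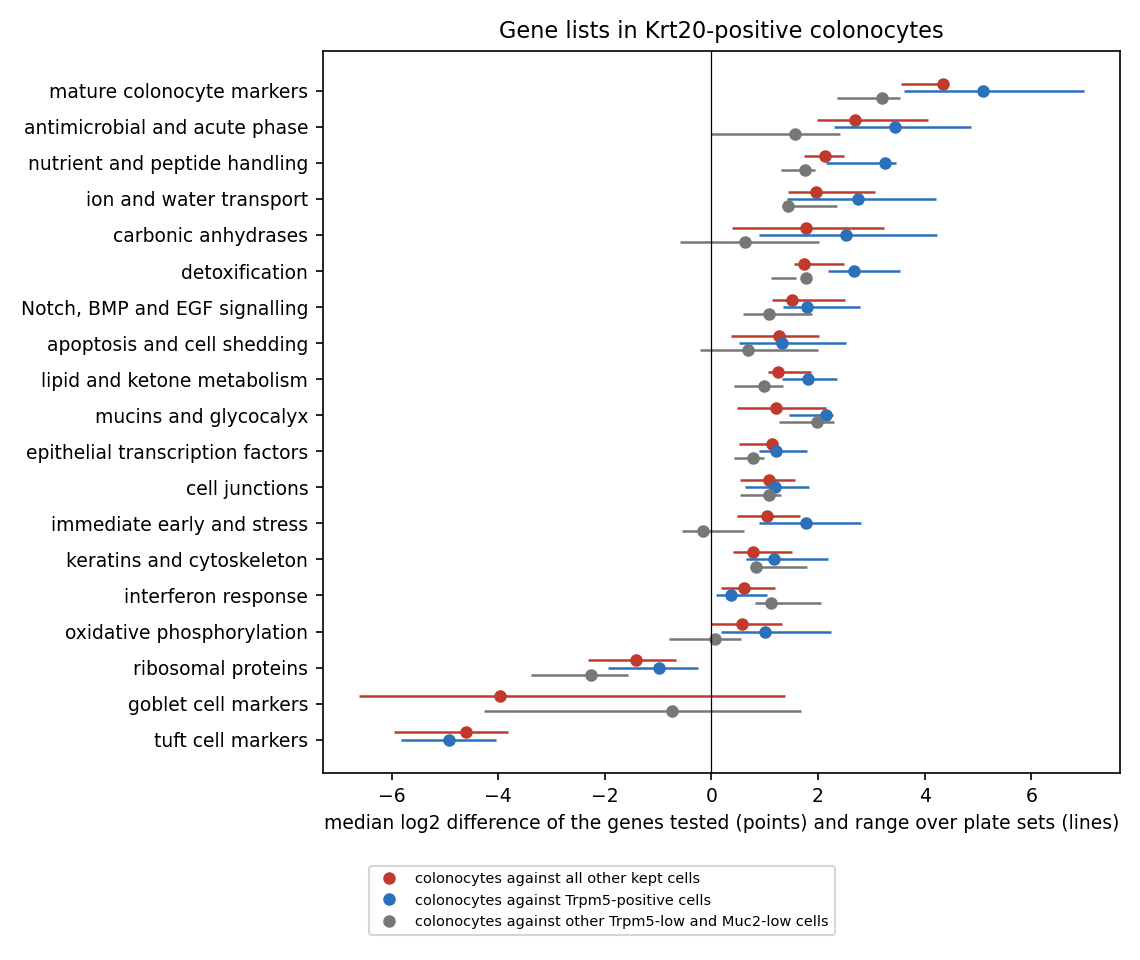
Median log2 difference of the tested genes of 19 lists (vertical) between Krt20-positive colonocytes and each of 3 sets of other cells. Points are the list medians over mean differences and lines run from the lowest to the highest plate set. Mature colonocyte genes are at the top at 4.35 against all other kept cells, and tuft genes at the bottom at -4.60.

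Of 19 epithelial transcription factors tested, 10 were higher and 2 lower (52.6% and 10.5%, beside 19.6% and 14.5% of all genes). Klf4, a factor of differentiated epithelium, was at 41.3 ± 14.5 TPM (1.12 ± 0.50) and Klf6 at 36.1 ± 14.1 TPM (2.24 ± 0.62). The bile acid receptor Nr1h4 was at 17.96 ± 6.38 TPM (2.22 ± 0.57), the vitamin D receptor Vdr at 23.9 ± 6.79 TPM (1.502 ± 0.60) and Isx, a homeobox repressor, at 20.2 ± 11.3 TPM (2.06 ± 1.04). Cdx1, a homeobox factor of the intestine, and Ehf were lower (-1.12 ± 0.42 and -1.80 ± 1.18), while Hnf4a, Klf5 and Cdx2 were not called. Against Krt20-low cells 3 of 18 transcription factors (16.7%, beside 14.1% of all genes) were higher and none lower. Of the Notch, BMP and EGF genes 5 of 7 (71.4%, beside 19.6% of all genes) were higher against all other kept cells and none lower. Among them were the EGF family ligands Areg (39.2 ± 23.7 TPM, 3.44 ± 0.74) and Hbegf (23.4 ± 8.14 TPM, 2.38 ± 0.59) and the receptor subunits Erbb2 (2.04 ± 0.52) and Erbb3 (1.52 ± 0.32).

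A pair of genes known to restrain cell division were high. Mxd1, which opposes Myc, averaged 211.9, 106.1, 198.5, 144.4, 81.4, 117.8 and 130.1 TPM in plate sets 1 to 7, against 6.02 to 14.1 TPM in the other cells (3.74 ± 0.73). Cdkn1a, which encodes the cell cycle inhibitor p21, averaged 375.8, 210.002, 128.7, 209.5, 195.1, 202.03 and 218.1 TPM. In Krt20-low cells Cdkn1a was at 8.33 to 40.6 TPM, with a difference of 3.59 ± 0.96, and in Trpm5-positive cells it was at 65.2 TPM, with a smaller difference of 1.80. For both genes the colonocyte means lay above every mean of the Krt20-low cells. Of 12 apoptosis and shedding genes tested 6 were higher and 1 lower against all other kept cells (50% and 8.33%, beside 19.6% and 14.5% of all genes). The lower one was Bcl2l14 (-2.15 ± 0.71).

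The 10 named genes lowest against Krt20-low cells were Rps28 (-4.80 ± 3.45), Gpx2, Tyms, Kcne3, Ifitm2, Cdk4, Mfsd10 (-4.07 ± 1.60), Agr2, Rpl12 (-3.94 ± 1.10) and Ube2c. Rps28 and Rpl12 are ribosomal protein genes. Tyms, which makes thymidylate for DNA synthesis, averaged 1.25 ± 1.75 TPM in the colonocytes and 55.4 ± 44.2 TPM in Krt20-low cells (-4.58 ± 1.73). Cdk4, a kinase of the early cell cycle, averaged 2.73 ± 2.69 against 55.996 ± 23.6 TPM (-4.08 ± 1.51). Ube2c, of mitotic exit, was listed at 0 in all the colonocytes and averaged 17.1 ± 12.1 TPM in Krt20-low cells. Gpx2, a glutathione peroxidase, averaged 11.9, 0, 20.5, 4.95, 3.13, 7.83 and 1.42 TPM against 95.1 to 193.6 TPM, without overlap (-4.78 ± 1.57). Of 5 stem and progenitor genes tested 4 (80%, beside 12.7% of all genes) were lower and none higher, with Stmn1 at -3.10 ± 1.40 and Tubb5 at -3.24 ± 0.97. Kcne3, a potassium channel subunit of secreting cells, was lower by -4.53 ± 0.99, and Ifitm2 and Agr2 by -4.27 ± 1.46 and -4.01 ± 1.77. Higher in the same comparison, outside the lists, were Rhoc, a GTPase of the actin skeleton (104.97 ± 38.04 against 5.19 ± 4.97 TPM), and Ndrg1, a stress-induced differentiation gene (122.5 ± 103.8 against 4.54 ± 4.09 TPM).

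Of 22 ribosomal protein genes tested, 17 (77.3%, beside 14.5% of all genes) were lower and none higher against all other kept cells (median -1.41). Against Krt20-low cells 17 (77.3%, beside 12.7% of all genes) were lower and none higher (median -2.25). Against Trpm5-positive cells 5 of 22 (22.7%, beside 14.8% of all genes) were lower and none higher, with a median of -0.98. Rpl3 averaged 45.99, 8.03, 7.18, 11.4, 44.9, 35.1 and 15.9 TPM in the colonocytes of plate sets 1 to 7, 109.2 to 185.5 TPM in all other kept cells and 149.9 to 474.1 TPM in Krt20-low cells. The colonocyte means lay below all of the others. After rescaling, 18 of 21 ribosomal protein genes were lower against all other kept cells and against Krt20-low cells. Against Trpm5-positive cells 11 of 21 were lower after rescaling. The summed level of the 22 genes was 1139.5 TPM at the median in colonocytes, 2493 TPM in Trpm5-positive cells and 5983 TPM in Krt20-low cells. Of 19 nuclear genes of oxidative phosphorylation 3 (15.8%, beside 19.6% of all genes) were higher and none lower against all other kept cells (Cox5a, Cox4i1 and Uqcrfs1). Against Trpm5-positive cells 10 of 19 (52.6%, beside 23.3%) were higher and none lower, and against Krt20-low cells none was called. The mitochondrial share of TPM was 6.95% in colonocytes and 3.31% in Krt20-low cells.

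Of 12 immediate early and stress genes 6 were higher, 1 lower and 5 not called against all other kept cells (median 1.05). That is 50% higher and 8.33% lower, beside 19.6% and 14.5% of all genes. Against Krt20-low cells 3 of 15 (20%, beside 12.7% of all genes) were lower and none higher (median -0.16, and 0.35 after rescaling). Fos, for example, was at 227.7 ± 51.7 TPM against 73.5 ± 19.5 TPM in all other kept cells (1.62 ± 0.51), and was not called higher against Krt20-low cells. Of 13 interferon response genes 4 were higher and 2 lower against all other kept cells, which is 30.8% and 15.4% beside 19.6% and 14.5% of all genes. Against Krt20-low cells 6 of 12 (50%, beside 14.1% of all genes) were higher and none lower, with a median of 1.12. Irf7, the factor that amplifies interferon, averaged 69.5, 235.2, 119.5, 152.7, 233.1, 82.2 and 90.6 TPM, and 0.89 to 24.4 TPM in Krt20-low cells (3.59 ± 1.504). Oas2 and Bst2, effectors of the same response, were lower than in all other kept cells (-2.02 ± 0.78 and -2.08 ± 0.69).

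Tuft cell genes were low, as a rule that leaves out Trpm5 selects for. All 16 tested against all other kept cells were lower (beside 14.5% of all genes), with a median of -4.60. Dclk1, a kinase of tuft cells, was at 4.93 ± 5.49 TPM against 367.5 ± 96.9 TPM, Sh2d6 at 3.62 ± 4.13 against 563.9 ± 192.1 TPM and Ltc4s, which makes leukotriene C4, at 0.67 ± 1.14 against 107.4 ± 26.4 TPM. The largest difference downward among the named genes was that of Atp2b4, a plasma membrane calcium pump (0.051 ± 0.093 against 854 ± 598 TPM), although only 10.1% of the other cells held a value. Ptpn6, Matk, Pik3r5, Fyb and Sh2d7, signalling genes also known from blood cells, were lower by -5.03 to -5.79. Cd24a was lower by -5.92 ± 2.00. Of 8 goblet genes tested 2 (25%, beside 14.5% of all genes) were lower, Agr2 and Muc2, the latter used by the rule.

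The colonocytes varied among themselves. Over these cells and 1986 genes, the genes most like Krt20 by Spearman correlation were Pmp22 (0.74), Guca2a (0.71), Lgals3 (0.70), Chp1 (0.70) and Ceacam1 (0.69), and the most negative was Lars2 (-0.21). Krt20 also correlated with the number of genes detected (0.41), which such pairs share. Saa1 kept other company. Its closest genes were Car4 (0.74), Saa2 (0.66), Tgm3 (0.61) and Aqp8 (0.61), while Car1 was at -0.45 and Osr2 at -0.40. Its correlation with the number of genes detected was -0.05. Of the 58 cells with Saa1, 56 also held Car4. Lypd8 was closest to Itm2b (0.81) and Prdx6 (0.74), and Guca2a to Lgals3 (0.78). These values describe cells that share plates and depth.

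A pair of genes split the colonocytes without overlap. Tgm3, a transglutaminase that cross-links proteins, had a value in 42 cells, Osr2, a zinc finger transcription factor, in 57 cells, both in 0 cells and neither in 26. This division was chosen after the values were seen, so it is a description. Counts of Tgm3-positive and Osr2-positive cells were 3 and 7, 8 and 5, 1 and 6, 6 and 8, 13 and 10, 6 and 17, and 5 and 4 in plate sets 1 to 7, so each plate set held both kinds. Over all plate sets pooled, Osr2-positive cells had more genes detected, with a median of 3114 against 2062.5, and cells with neither had 1712. In plate sets 1, 3 and 7 the order was the other way, with Tgm3-positive medians of 2413, 4723 (1 cell) and 3782. Osr2-positive medians there were 2384, 2620 and 1616.5. Both kinds were in both gates, with 28 and 47 of 92 cells from the tuft gate and 14 and 10 of 33 from the epithelial gate. Outside the colonocytes, 0.93% of Trpm5-positive cells held Tgm3 (5 cells), 35.1% held Osr2 and none held both. Of the Krt20-low cells 6.02% held Tgm3 (10 cells), 41.6% held Osr2 (69 cells) and 1 cell held both.

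In the 6 plate sets with at least 3 cells of each kind, 60 of 2706 genes (2.22%) were higher in Tgm3-positive and 4.73% higher in Osr2-positive colonocytes. These shares moved with the cells used, to 5.04% without plate set 1 for Tgm3-positive and to 12.5% without plate set 7 for Osr2-positive cells, and to 12.5% and 10.8% in cells of 1500 to 4000 genes. Sycn, a protein of secretory granules, averaged 724 ± 432.5 TPM in Tgm3-positive cells against 2.61 ± 6.39 TPM (log2 8.55 ± 2.34, n = 6 plate sets). Aqp8 averaged 148.5 ± 90.1 against 3.96 ± 6.60 TPM (5.62 ± 2.21), and Slc26a3 152.98 ± 58.5 against 11.3 ± 6.06 TPM (3.73 ± 1.02). Saa1 averaged 572.9 ± 513.4 against 71.3 ± 118.9 TPM, with a spread that was wide (3.86 ± 3.41). Hoxb13, the last gene of its Hox cluster and a mark of the posterior body, averaged 33.7 ± 22.9 TPM and was listed at 0 in all 57 Osr2-positive cells. Of the 31 colonocytes with Hoxb13, 28 held Tgm3. Ano1, a calcium-activated chloride channel (4.52 ± 1.24), Slc37a2, a sugar phosphate transporter (4.50 ± 1.52), and Tmprss2, a surface protease (3.33 ± 0.53), were higher as well. Of 18 ion and water transport genes tested 6 were higher in Tgm3-positive cells and none lower, with a median of 0.70 beside -0.36 for all genes.

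The Osr2-positive cells held another set. Car1 averaged 10133 ± 4086 TPM in them and 1287 ± 1315 TPM in Tgm3-positive cells (-3.68 ± 1.51). Rnf186, a ubiquitin ligase, averaged 74.3 ± 40.7 against 1.42 ± 2.95 TPM (-5.31 ± 2.17). The bile acid genes stood together. Slc51a and Slc51b, the subunits of the basolateral transporter, were at 48.8 ± 47.9 and 192.2 ± 143.1 TPM in Osr2-positive cells. In Tgm3-positive cells they were at 0.53 ± 1.31 and 19.4 ± 19.4 TPM. Slc10a2, the apical bile acid transporter, was at 20.2 ± 28.3 TPM and S100g, a calcium binding protein of absorbing cells, at 365.3 ± 308.99 TPM, and both were listed at 0 in all Tgm3-positive cells. Cyp2c65 (-3.77 ± 2.14) and Pdk4, a switch from sugar to fat use (-3.31 ± 2.32), were also higher in Osr2-positive cells. In cells of 1500 to 4000 genes, over 3 plate sets, Sycn, S100g, Slc10a2 and Slc51b were not called, and Slc10a2 was not called without plate set 2.

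Krt20 was close between the kinds and was not called. It averaged 294.6 and 221.1 TPM over Tgm3-positive and 298.7 and 218.5 TPM over Osr2-positive cells of wild type and labelled conditional knockout plate sets. Of the 6 markers Saa1 alone was called between the kinds. Over the list of 21 mature colonocyte genes, 3 were higher in Tgm3-positive and 3 in Osr2-positive cells, beside 2.22% and 4.73% of all genes. The list median was -0.17, beside -0.36 for all genes. In a set of 9 genes around Saa1 and Tgm3 the median Spearman correlation over 36 pairs was 0.55, and in a set of 6 genes around Osr2 it was 0.40 over 15 pairs. Over the 54 pairs between the sets it was -0.42, beside 0.20 for all pairs of genes. Within plate sets, the 3 medians were 0.57, 0.40 and -0.39. Both sets were chosen from these correlations, so they describe the cells and carry no test.

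**Figure D5:**
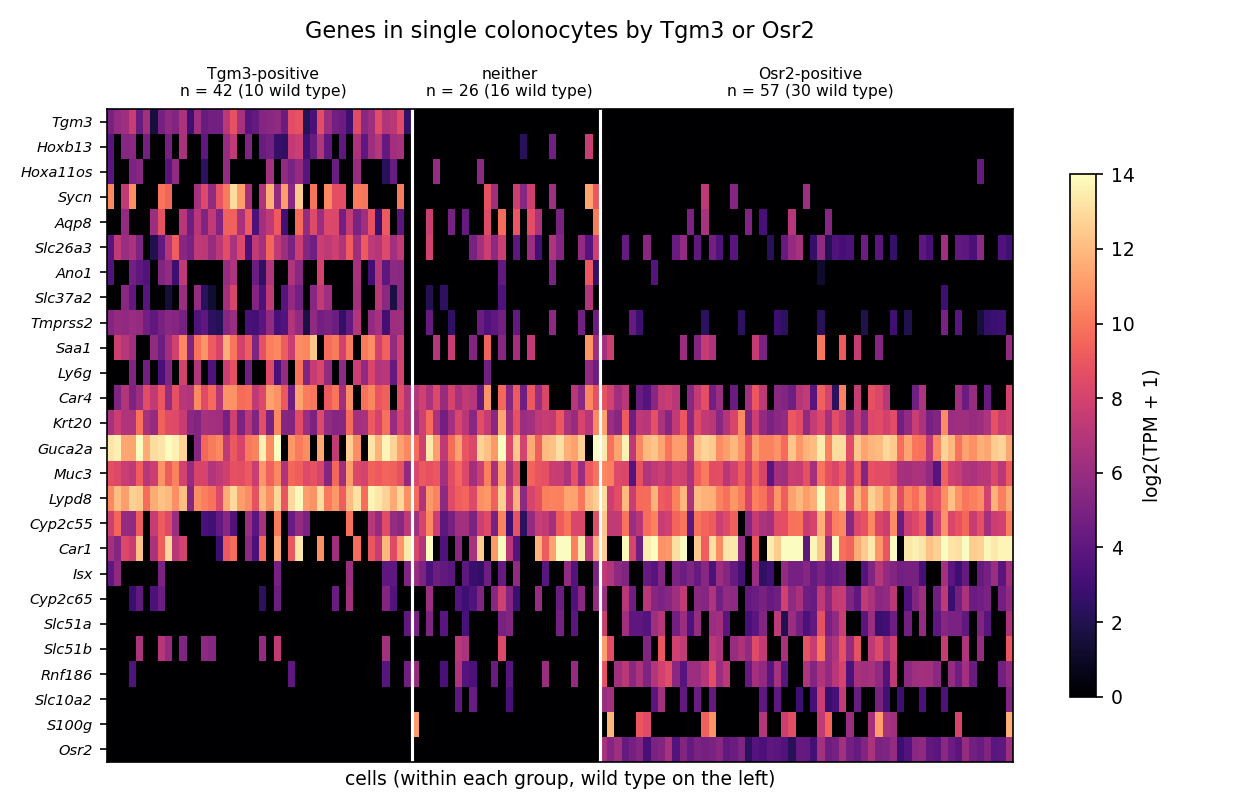
Level of 26 genes (vertical) as log2(TPM + 1) (colour) in the colonocytes (horizontal), ordered as 42 Tgm3-positive cells, 26 with neither gene and 57 Osr2-positive cells. Within each block wild type cells are on the left. Krt20, Muc3 and Lypd8 run through all blocks, while Hoxb13 is at 0 in the Osr2-positive block and S100g at 0 in the Tgm3-positive block.

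The genotype label moved with this division. Tgm3 had a value in 10 of 56 colonocytes of wild type plate sets (17.9%) and in 32 of 69 of labelled conditional knockout plate sets (46.4%), and Osr2 in 30 and 27. Ipmk itself averaged 13.5, 10.7 and 14.9 TPM under the wild type label and 47.5, 51.3, 32.6 and 15.7 TPM under the knockout label, so it was not lower there. The deposited values sum over the whole gene and do not show the deleted part alone. Between the labels 88 of 2652 genes (3.32%) were higher and 5.73% lower under the knockout label, taking genes at 10 TPM or more that differed 1.5-fold without overlap of plate sets (3 against 4). Of the 6 markers 3 were higher, with Car4 at 462.8 ± 119.1 against 157.5 ± 58.1 TPM, Saa1 at 462.5 ± 237.2 against 48.3 ± 9.48 TPM and Lypd8 at 3318 ± 603.6 against 1942 ± 292.9 TPM (log2 0.77). Of 16 ion and water transport genes 9 were higher and none lower, with a median of 0.90 beside -0.14 for all genes, and Aqp8 was at 122.9 ± 29.9 against 35.4 ± 39.01 TPM. Ly6g was at 56.9 ± 28.9 against 2.01 ± 1.74 TPM. Pdk4 (12.6 ± 12.98 against 63.1 ± 12.2 TPM) and Cldn4 (18.2 ± 19.4 against 77.01 ± 35.4 TPM) were lower. Krt20, Guca2a and Muc3 differed by -0.28, 0.09 and 0.05 (log2) and were not called.

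Within Tgm3-positive cells alone, Saa1 had a median of 67.6 TPM in 10 cells of wild type and 619 TPM in 32 cells of labelled conditional knockout plate sets. By plate set its means in those cells were 114.7, 1197, 78.8, 672, 1154, 67.98 and 232.2 TPM in plate sets 1 to 7, and those of wild type plate sets (1, 3 and 6) were below the others, with 3, 1 and 6 cells behind them. In Osr2-positive cells the median of Saa1 was 0 TPM under both labels. Whether these differences go with the genotype or with the plates cannot be told apart.

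On the first plates of the sets, which hold both gates, 45 colonocytes came from the tuft gate and 33 from the epithelial gate. The tuft gate cells had a median of 2129 genes and the epithelial gate cells 3116. Siglecf, the gene for the sorted protein, had a value in 5 of 45 and in 0 of 33. Krt20 averaged 262.2 and 287.4 TPM, Guca2a 4094 and 4272 TPM, and Lypd8 2301 and 3305 TPM. Saa1 had a value in 20 of 45 and in 21 of 33, and Tgm3 in 13 of 45 and in 14 of 33. The gates and depth move together here, and the part of either in these values was not tested.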

How the data were processed

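The authors deposited a table of TPM values per gene and well, and TPM summed to between 999999 and 1000001 in each non-empty well. Per the submitters' processing notes, Bowtie2 2.4.2, RSEM 1.3.3 and mm10 were used. The sources used here give no annotation release, strand setting or read depth, so no count test was made. The table held 46609 entries, 46517 of them mouse genes, for 1203 wells, of which 19 were empty and 856 reached 1000 genes above 0. No 2 kept columns were identical, and no doublet caller was run.

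Differences were taken inside plate sets with at least 5 cells of each class (3 between Tgm3-positive and Osr2-positive cells) as log2(mean TPM + 1), with plate sets weighted equally, and called by size as stated in the report. Intervals for shares are exact binomial. The named genes are the 6 markers, the 30 highest and 15 lowest against all other kept cells, the 15 highest and 10 lowest in each of the other comparisons, members of 24 lists by role, and the 15 highest and lowest between Tgm3-positive and Osr2-positive cells. Entries named Gm, Rik, clone, -ps or mt were counted and not named. The comparison code was tested on partly simulated data, in which well-detected genes of real Trpm5-positive cells were multiplied by known large folds. Small differences and rarely detected genes were not tried. The members, lists and the Tgm3 and Osr2 division were chosen with earlier results of these data known. Genes were matched to RefSeq (GRCm38.p6) and GENCODE M21 by symbol for 72 of 73 named genes. Alternatives changed the pseudocount, level, scaling, cell limits, gate and plate sets. The work used Python 3.11.15, numpy 2.4.6, pandas 2.3.3, scipy 1.17.1 and matplotlib 3.10.9. A few items, among them genes that the rules would name, are not reported here.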

Additional observations from a re-analysis of the deposited data

Results flagged for a closer look

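Of 47 results examined over the 7 plate sets, 4 had a plate set that stood apart from the rest, where chance alone sets apart about 1 in 20. The log2 difference of Krt20 between colonocytes and all other kept cells was 5.42 in plate set 5, and the nearest other plate set was at 6.54. That of Slc51b was 7.73 in plate set 1, with 210.995 TPM in colonocytes and 0 in the others, and the nearest was at 4.60. That of Car1 was 6.68 in plate set 3, with 4264 TPM in colonocytes and 40.7 TPM in the others, and the nearest was at 4.72. The colonocytes made up 30.4% of the kept tuft gate cells in plate set 7 (7 of 23 cells), and the nearest plate set was at 17.7%. None of the tested list genes went one way in every wild type plate set and the opposite way in every labelled conditional knockout plate set. The causes were not tested.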

How the results depend on the processing

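No paired analysis was possible because the labels' numbers name wells, not animals, though taking differences inside plate sets sets the classes side by side within each. No gene named by size changed direction in any setting. Of 45 genes named by size against all other kept cells 41 kept their call in each of 18 settings that held them, since rescaling leaves out the most abundant genes (not Atp2b4, Muc2, Slc51b and Tgm3), of 25 against Trpm5-positive cells 23 did (not Atp2b4 and Spink1), and of 25 against Krt20-low cells 21 did (not Agr2, Mfsd10, Rps28 and Slc51b). Between Tgm3-positive and Osr2-positive cells 19 of 30 did in 11 settings chosen after seeing the data (not Ccdc107, Cyp4b1, Eno3, Hoxa11os, Il18, Nbr1, S100g, Slc10a2, Slc51b, Sycn and Wfdc2).

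With a pseudocount of 10 TPM the shares of tested genes higher and lower were 11.9% and 9.603% against all other kept cells, 14.98% and 9.45% against Trpm5-positive cells and 8.41% and 7.02% against Krt20-low cells, and 2.48% were lower in Tgm3-positive than in Osr2-positive cells. With a level of 1 TPM, so more genes tested, 11.7% of 10192 were lower against all other kept cells, 10.1% higher and 10.6% lower of 10020 against Trpm5-positive cells, and 7.79% of 10333 lower against Krt20-low cells. With TPM rescaled, which also lifts more genes over the level, the lower shares were 17.6% of 9934, 16.5% of 9910 and 8.83% of 9533 genes, and Tgm3-positive against Osr2-positive cells gave 1.60% higher and 3.27% lower of 8384. With Krt20 at 5 TPM or more, 20.7% were lower against Krt20-low cells, over 6 plate sets. In cells of 1500 to 4000 genes, an alternative added after seeing the data that leaves 3 plate sets, Tgm3-positive against Osr2-positive cells gave 12.5% and 10.8%. Leaving out a plate set at a time gave 18.9% to 21.9% higher and 14.4% to 17.003% lower genes against all other kept cells. Between Tgm3-positive and Osr2-positive cells it gave 2.22% to 5.04% higher (5.04% without plate set 1) and 4.73% to 12.5% lower (12.5% without plate set 7). Beyond the number of genes tested, the causes were not tested. Read depth is unknown, so a value of 0 sets no limit.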
